A study of Drosophila melanogaster with 6 samples.

Results

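Dscam1, Dscam2, Dscam3 and Dscam4 are the 4 Dscam genes of Drosophila melanogaster, picked out by symbol from the 17559 genes of each deposited table. They were chosen with their counts in mutant and control ovaries already known, above all those of Dscam4, so their differences between the groups are given as a description without a test. Poly(A) RNA of dissected ovaries was counted in 6 libraries. The 3 mutant libraries came from females with the RanBP9 allele D1 over the deficiency BSC469, and the 3 control libraries from females with a w1118 chromosome over BSC469. All groups thus carried BSC469, and all flies were kept at 25 °C. RanBP9 is an older name of Ipo9, the gene of Importin-9, which carries actin into the nucleus, and the series asks what less nuclear actin does to transcription. Ipo9 lies on the third chromosome, as do Dscam2, Dscam3 and Dscam4, and effects of D1 and of other differences between the D1 and w1118 chromosomes cannot be told apart. The labels do not say whether the libraries of a group came from separate crosses or dissections, so errors and p-values describe the spread between these libraries.

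Dscam proteins are cell surface receptors of the immunoglobulin superfamily, with a row of immunoglobulin domains followed by fibronectin type III domains, a membrane span and a cytoplasmic tail. Molecules on neighbouring membranes bind their own kind, and in the nervous system this binding makes branches of 1 neuron avoid each other or keeps neighbouring cells apart. Dscam1 is known for its very large number of splice isoforms and is also expressed in blood cells and fat body. Dscam2 acts in the tiling of neurons in the visual system, and Dscam3 and Dscam4 are less studied.

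The libraries held 21583524 to 26483578 counted reads each. Ipo9 was present in every library, at 98.2, 91.0 and 92.0 CPM (counts scaled to a common library size) in mutant replicates 1, 2 and 3 and at 118, 155 and 116 CPM in control replicates 1, 2 and 3. All mutant values were below all control values, and the log2 fold change of −0.47 (SE 0.12) missed the threshold used here, an edgeR adjusted p under 0.05, at 0.0544. Germline markers such as vas and osk summed to 3898 to 4066 CPM in mutant and 3921 to 4117 CPM in control ovaries, and all 10 had counts. Follicle cell markers, all 13 with counts, summed to 11891 to 14013 CPM in mutant ovaries and 16460 to 21204 CPM in control ovaries, and the groups did not overlap. Eggshell genes carried most of this sum, with Cp38 at 5600 ± 458 CPM in mutant and 8550 ± 1198 CPM in control ovaries (SD, n = 3 each). The log2 fold changes of the markers outside the eggshell genes went both ways, all short of the threshold. Cad99C (0.58, SE 0.23), br (0.35, SE 0.15), tj (0.25, SE 0.17), upd1 (0.10, SE 0.39) and slbo (0.02, SE 0.32) were positive. Fas3 (−0.23, SE 0.21) and mirr (−0.02, SE 0.16) were negative. On the second principal component, with 19.3% of the variance, the score of mutant replicate 2 was −26.1, and the scores of the remaining 5 libraries ran between 0.690 and 10.8.

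Dscam4 (FBgn0263219) spans chr3L:8238647-8282398 on the plus strand of the dm6 build and is annotated as protein coding, with 5 transcripts. Its counts were 32, 22 and 14 in mutant replicates 1, 2 and 3, against 366, 401 and 385 in control replicates 1, 2 and 3. On the CPM scale these were 1.25, 1.01 and 0.625 in mutant and 13.8, 18.4 and 16.4 in control ovaries. Every mutant library lay far below every control library. The mean level was 0.962 ± 0.316 CPM in mutant and 16.2 ± 2.34 CPM in control ovaries (SD, n = 3 each), so that the mutant mean was 5.94% of the control mean. The log2 fold change was −4.05 (SE 0.21, edgeR, mutant over control). From the summed counts, 68 in mutant and 1152 in control libraries, the ratio of mutant over control was 0.0608, with an exact 95% counting interval of 0.0469 to 0.0777. That interval covers counting error only. In whole ovaries, fewer cells that express a gene and less RNA per cell cannot be told apart.

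The relative spread of Dscam4 was 32.8% of the mean in mutant and 14.5% in control ovaries. Mutant replicate 3 was the lowest of the mutant libraries, and without it the log2 fold change was −3.82. Without both replicates numbered 2 it was −3.98. In control ovaries 5928 of the 17559 genes had a higher mean CPM than Dscam4, and in mutant ovaries 7557 had.

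Dscam1 (FBgn0033159), on the minus strand at chr2R:7317924-7381899, had 23, 20 and 8 counts in mutant replicates 1, 2 and 3, against 13, 11 and 17 in the control replicates. Its means were 0.725 ± 0.319 CPM in mutant and 0.573 ± 0.131 CPM in control ovaries (SD, n = 3 each). The groups overlapped, since mutant replicate 3 lay below all control libraries and the other mutant libraries above them. The log2 fold change was 0.34 (SE 0.41), and the ratio of the summed counts, 1.28, had a counting interval of 0.833 to 1.98. The annotation lists 75 transcripts of Dscam1, and counts per gene do not show which of its isoforms were present.

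Dscam3 (FBgn0261046), on the minus strand at chr3R:17473935-17505667, had 16, 22 and 11 counts in mutant replicates 1, 2 and 3 and 7, 10 and 15 in the control replicates. The means were 0.709 ± 0.270 CPM in mutant and 0.454 ± 0.188 CPM in control ovaries (SD, n = 3 each), and Dscam3 had a log2 fold change of 0.65 (SE 0.43). The ranges overlapped here too, with mutant replicate 3 below control replicate 3. The ratio of the summed counts was 1.58, and its counting interval of 0.990 to 2.54 included equal levels.

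Dscam2 (FBgn0265296), on the minus strand at chr3L:7159199-7189931, was close to absent, with 4, 5 and 1 counts in mutant replicates 1, 2 and 3 and 5, 2 and 1 in the control replicates. It was the only one of the 4 genes that did not pass the filter on low counts. The control counts of Dscam3 alone, or the mutant counts of Dscam1 alone, would not have passed it. The means of Dscam2 were 0.144 ± 0.0933 CPM in mutant and 0.108 ± 0.0740 CPM in control ovaries (SD, n = 3 each). From sums of 10 and 8 counts in mutant and control libraries the ratio was 1.29, with a counting interval of 0.458 to 3.75. Equal levels lie inside this interval, which covers counting error only. Its log2 ratio of 0.36 changed sign when control replicate 3 (−0.01) or mutant replicate 2 (−0.10) was left out, and was 1.11 without control replicate 1.

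Of the 3 Dscam genes that passed the filter, 1, Dscam4, was past the threshold, as were 14.5% of all 8110 genes tested (8.31% higher and 6.2% lower in mutant ovaries). It was also past a fold of 2, as were 2.28% of all genes tested. Dscam4 was also the only one of the 3 whose groups did not overlap. The groups did not overlap for 34.9% of all genes tested, and for 16.5% with mutant below control ovaries. The Dscam genes were chosen on these same counts, so these shares describe the choice and nothing is read from them. Past the threshold, 12 genes (0.148% of those tested) were lower in mutant ovaries by a fold of at least 8, and by log2 fold change Dscam4 stood eighth from the lowest. Several of these genes, such as CR41509, CG9458 and Tektin-C, passed the filter through the control libraries alone, so for them the filter favoured a fall. Of the 12, 4 were among 1550 tested genes of arm 3L and 5 among 1939 of 3R. There was 1 among 1643 tested genes of 2R, 1 among 1462 of X, and 1 on Y. None was among the 1425 tested genes of 2L or the 76 of chromosome 4. Calls in either direction and of any size were 15.9% on 3L, 14.5% on 3R and 14.8% on 2L, which is another measure.

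**Figure D1:**
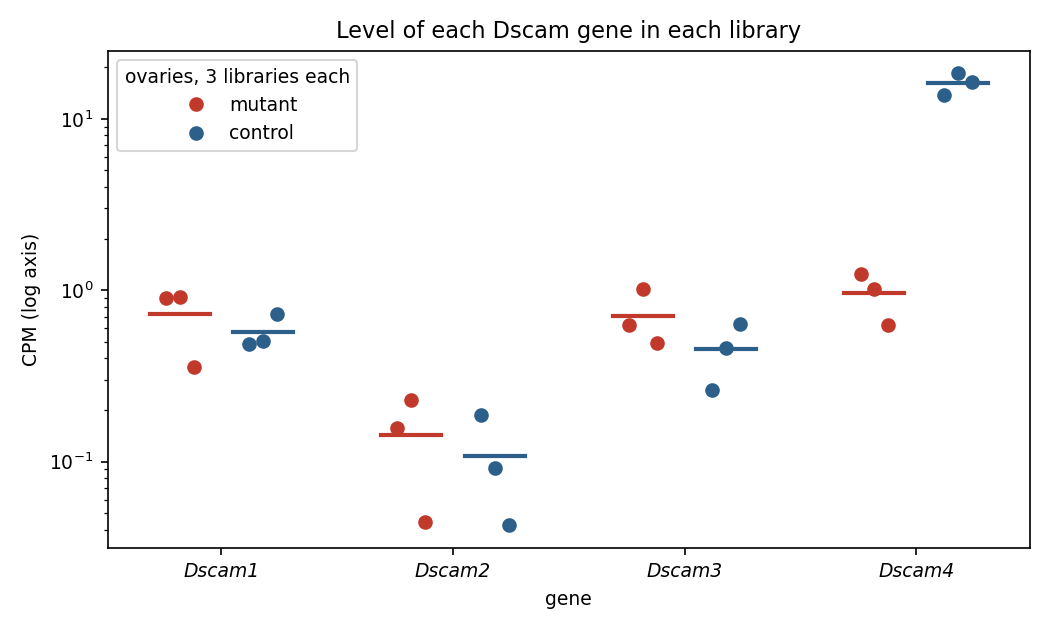
CPM of each Dscam gene (log axis) in each of 3 mutant and 3 control ovary libraries, 1 point per library, with a line at the group mean. Dscam4 is at 0.625 to 1.25 CPM in mutant and 13.8 to 18.4 CPM in control libraries, while the groups overlap for Dscam1, Dscam2 and Dscam3.

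**Figure D2:**
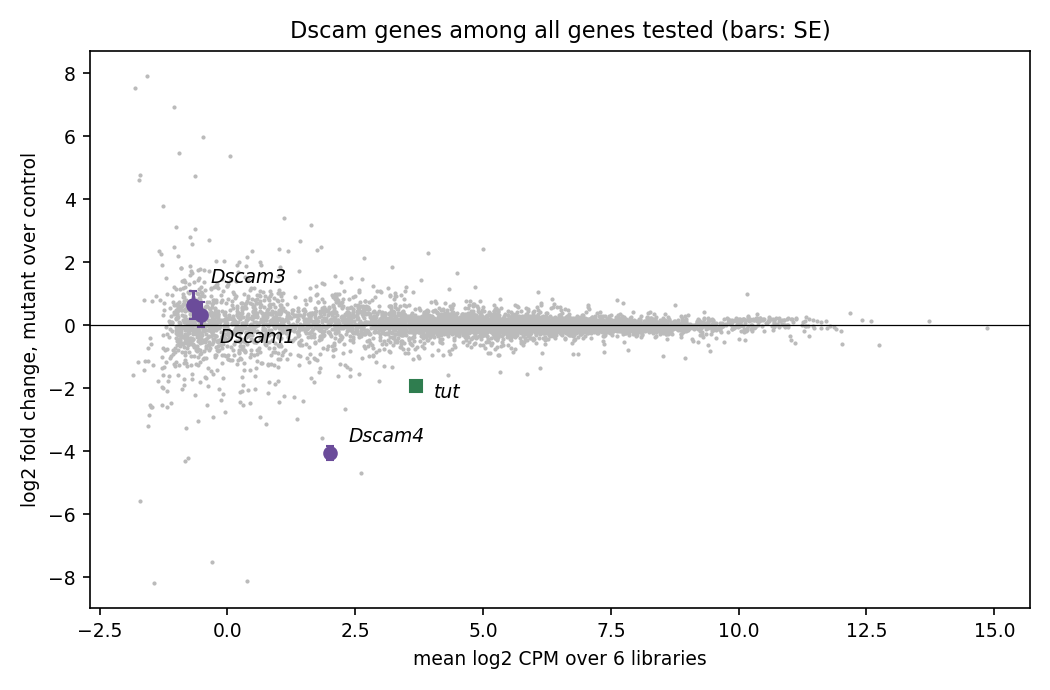
Log2 fold change (mutant over control) against mean log2 CPM over the 6 libraries for all 8110 genes tested, 1 grey dot per gene, with Dscam1, Dscam3 and Dscam4 in purple, tut in green and bars for the SE. Dscam4, at −4.05, lies well below the band of genes of like abundance, and Dscam1 and Dscam3 lie inside it.

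To compare the genes with each other, CPM was divided by the length of the longest annotated transcript, 9145 bases for Dscam1, 10070 for Dscam2, 8231 for Dscam3 and 7815 for Dscam4. On this scale of CPM per kilobase, Dscam4 was highest in both groups, at 0.123 ± 0.0404 in mutant and 2.07 ± 0.300 in control libraries (SD, n = 3 each). Dscam3 was at 0.0862 ± 0.0328 in mutant and 0.0551 ± 0.0228 in control ovaries, and Dscam1 at 0.0793 ± 0.0349 and 0.0626 ± 0.0143 in the same order of groups. Dscam2 was lowest, at 0.0143 ± 0.00926 in mutant and 0.0107 ± 0.00734 in control ovaries.

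In mutant ovaries the order was Dscam4, Dscam3, Dscam1 and Dscam2, and the neighbours Dscam4 and Dscam3, and Dscam3 and Dscam1, differed by less than the larger of their SDs. In control ovaries Dscam4 was 33.1 times the next gene, Dscam1, and the order of Dscam1 and Dscam3 was within their spread. With the union of all exons as length, which is 26496 bases for Dscam1, Dscam3 stood above Dscam1 in both groups, and Dscam4 was 38.4 times the next gene in control ovaries. With the genomic length of the deposited tables, Dscam3 and Dscam4 had almost the same mean in mutant ovaries, 0.0223 ± 0.00852 and 0.0220 ± 0.00722.

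As a share of the summed level per kilobase of the 4 genes, by longest transcript, Dscam4 made up 45.7%, 34.5% and 43.7% in mutant replicates 1, 2 and 3, against 94.4%, 95.1% and 92.9% in the control replicates. Dscam1 made up 28.1%, 26.8% and 21.3% in the mutant replicates and 2.87%, 2.23% and 3.50% in the control replicates. With the union of exons as length, Dscam4 made up 56.9%, 42.7% and 51.4% in mutant replicates 1, 2 and 3 and 96.5%, 96.7% and 95.1% in the control replicates. Dscam1 then made up 12.2%, 11.6% and 8.77% in the mutant replicates and 1.02%, 0.792% and 1.25% in the control replicates. Under either length Dscam4 held most of the sum in control ovaries. The share of Dscam1 in mutant ovaries depended on the length used, while its mean there lay below that of Dscam3 under either. The shift in shares follows from the level of Dscam4 and is no separate measurement.

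**Figure D3:**
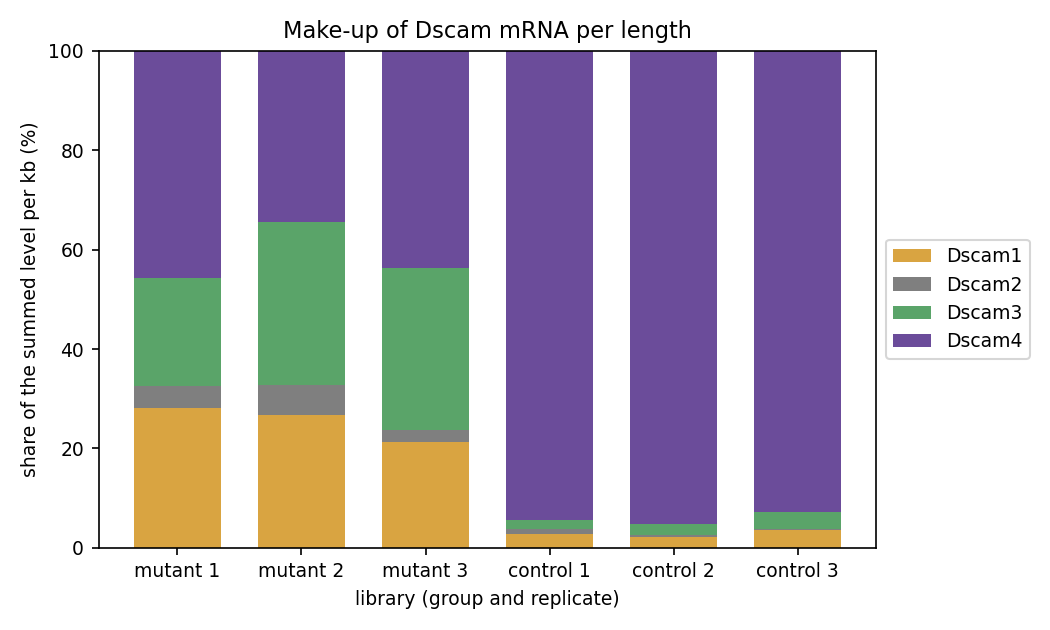
Share (%) of each Dscam gene in the summed CPM per kilobase of longest transcript of the 4 genes, 1 bar per library, mutant replicates on the left and control replicates on the right. Dscam4 fills 34.5% to 45.7% of the mutant bars and 92.9% to 95.1% of the control bars.

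Mutant replicate 3 was the lowest mutant library for all 4 Dscam genes, while it was the lowest for 37.6% of all genes tested. It was also the lowest mutant library for 12 of 12 muscle markers, 13 of 13 follicle cell markers, 8 of 10 hemocyte markers and 7 of the 12 neuron markers with counts. It was the lowest for 7 of 8 glia markers and 6 of 10 fat body markers, but for 5 of 10 germline markers, 1 of 6 spermatheca and oviduct markers, and 0 of 9 gut and 0 of 4 testis markers with counts. Ties at 0 counts went to the earlier replicate, which lowers the numbers for lists with many zeros, such as the gut and testis lists. Among Dscam partners with counts, it was the lowest for 5 of 6 ligands and coreceptors, 2 of 8 intracellular partners and 5 of 8 regulators of splicing or level. It was the lowest for 24 of 34 immunoglobulin adhesion genes and 19 of 40 dpr, DIP, beat and side genes with counts. Muscle markers summed to 301, 261 and 161 CPM in mutant replicates 1, 2 and 3 and to 140, 247 and 243 CPM in the control replicates. Hemocyte markers, all 10 with counts, summed to 415 to 573 CPM in mutant and 478 to 502 CPM in control ovaries. The genes crq, vkg and srp carried most of this sum. Among the others Hml, the hemolectin gene of hemocytes, averaged 0.290 ± 0.209 CPM in mutant and 0.135 ± 0.0774 CPM in control ovaries (SD, n = 3 each).

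Neuron markers, 12 of 15 with counts, summed to 104 to 112 CPM in mutant and 97.8 to 112 CPM in control ovaries. A single gene, unc-13, made up most of this sum, at 98.1 ± 2.65 CPM in mutant and 94.0 ± 7.01 CPM in control ovaries (SD, n = 3 each), so the sum says little of neurons. Of their defining genes, Syt1 (synaptotagmin), ChAT and VGlut (enzyme and transporter of neurotransmitters) had no counts in any library. The gene elav was at 3.82 ± 0.831 CPM in mutant and 2.81 ± 0.426 CPM in control ovaries (SD, n = 3 each). Cadps was at 3.08 ± 1.14 and 4.13 ± 0.776 CPM in the same order. Fewer counts, but some in every library, were found for brp, Syn, Snap25, cpx, Rab3 and futsch. Their means ran from 0.114 (Rab3) to 0.688 CPM (cpx) in mutant ovaries. In control ovaries they ran from 0.127 (brp) to 0.613 CPM (futsch). Counts of nSyb, Rdl and para were at 0 in some libraries. The part of these other cells in the low levels of Dscam1, Dscam2 and Dscam3 was not tested. Gut markers were at 0.00, 158 and 13.4 CPM in mutant replicates 1, 2 and 3 and at 0.0426 to 0.188 CPM in the control replicates, with Amy-p at 0. None of the 37 tested genes of the neuron, glia, hemocyte, muscle, fat body, and spermatheca and oviduct lists passed in edgeR's test, 2 had an unadjusted p under 0.05, and DESeq2 and limma-voom called 1 each. Glia markers, all 8 with counts, summed to 39.1 to 51.3 CPM in mutant and 44.5 to 51.1 CPM in control ovaries. The sums overlapped as well for fat body markers, at 6678 to 8496 CPM in mutant and 7822 to 8667 CPM in control ovaries, and for spermatheca and oviduct markers, at 103 to 109 CPM in mutant and 102 to 109 CPM in control ovaries. The yolk protein genes Yp1 and Yp2 carried most of the fat body sum, so it says little of the other genes of that list. Among these, Lsp2 had 4, 2 and 0 counts in mutant replicates 1, 2 and 3 and 10, 26 and 1 in the control replicates. Fbp1 had 1, 0 and 0 in mutant replicates and none in control replicates. FASN1 (0.14, SE 0.07) and CG31523 (0.05, SE 0.04) had positive log2 fold changes, both short of the threshold. Yp3, another yolk protein gene, was at 547 ± 91.0 CPM in mutant and 850 ± 99.0 CPM in control ovaries (SD, n = 3 each), without overlap, and its log2 fold change of −0.64 (SE 0.15) missed the threshold at an edgeR adjusted p of 0.0539. The lipoprotein gene apolpp had −0.92 (SE 0.37), also short of the threshold. No gut marker passed the filter on low counts. Those with many counts had them mostly in a single mutant library, such as Jon65Aiv with 1379 in mutant replicate 2. betaTub85D, a tubulin of the male germ line, was the only testis marker tested. With 22, 14 and 16 counts in mutant and 7, 5 and 8 in control replicates, it passed the filter through the mutant libraries alone, so the filter favoured a rise. It rose by 1.40 (SE 0.36, adjusted p = 0.0284, edgeR). That call ended when any of 5 libraries was left out singly and with DESeq2 (adjusted p = 0.131). The 11 testis markers summed to 0.782 to 0.938 CPM in mutant and 0.460 to 0.527 CPM in control ovaries, and 7 of them, ProtA and ProtB among them, had no counts.

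Of the 13 follicle cell markers, 0 rose, 3 fell and 10 were not past the threshold, beside 14.5% called of all genes tested. The eggshell genes Cp36, Cp38 and Vm26Ab fell by 0.58 (SE 0.11), 0.61 (SE 0.11) and 0.47 (SE 0.11) on the log2 scale, with edgeR adjusted p of 0.0201, 0.0154 and 0.0332. None of the 3 calls held when control replicate 1 was left out, where the adjusted p were 0.0716, 0.0508 and 0.0984. Of the 10 germline markers, aub and grk rose by 0.21 and 0.27, and vas and bam fell by 0.16 and 0.27, and 4 or more single libraries each ended these calls. Whether the level of Dscam4 moved with that of follicle cells was not tested. The log2 fold changes of the follicle cell markers ran from −0.61 to 0.58, beside −4.05 for Dscam4.

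The surroundings of each gene were read from the genes that overlap it and the 3 nearest on either side. CG7213, on the strand opposite to Dscam4, overlaps it over 1955 bases and had 0 counts in the mutant libraries and 0, 0 and 1 in the control replicates. The setting used for strand in counting is not given in the sources used here, so reads of that stretch are uncertain. cert, the gene of a ceramide transfer protein that lies 129 bases beyond the right end of Dscam4, was at 70.6 ± 0.244 CPM in mutant and 74.6 ± 1.87 CPM in control ovaries (SD, n = 3 each), and its log2 fold change, −0.08 (SE 0.04), missed the threshold at an edgeR adjusted p of 0.228. Rab19, the gene of a small GTPase, had −0.15 (SE 0.06, adjusted p = 0.123, edgeR), which also missed the threshold. The 3 nearest genes on the left had at most 1 count in any library. Of the 2 tested neighbours of Dscam4, 0 were called, 1 had an unadjusted p under 0.05, and DESeq2 and limma-voom called 0.

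A wider stretch of 100 kb on either side of Dscam4 was also read, a width chosen after the values were seen. Of the 30 genes tested there, 1 was called higher and 5 lower, with a median log2 fold change of −0.05. Of all genes tested, 8.31% were called higher and 6.2% lower, and on arm 3L 15.9% were called. The counts of calls in this stretch and in those below are a description only. The lowest of the 30 genes was tut, 27.9 kb to the left, which acts with bam to end the amplifying divisions of male germ cells. Its counts were 153, 157 and 149 in mutant replicates 1, 2 and 3 and 687, 479 and 636 in the control replicates, and the groups did not overlap. That is 6.62 ± 0.620 CPM in mutant and 25.0 ± 2.63 CPM in control ovaries (SD, n = 3 each), and edgeR gave −1.92 on the log2 scale (SE 0.11, adjusted p = 7.4e-06). The call held without each single library. Atg18a, an autophagy gene 47.5 kb to the left, fell by 0.36 (SE 0.04, adjusted p = 5.6e-04, edgeR), and CG7083, 58.4 kb to the right, fell by 0.39 (SE 0.08, adjusted p = 0.0102, edgeR). The value of CG7083 is uncertain because Prim1 overlaps it on that strand. The calls of mus301, CG42445 and Nmt, with log2 fold changes of −0.21, −0.22 and 0.16, ended without 4 or 5 of the single libraries. CG8012, the only tested gene between tut and Dscam4, did not pass the threshold (0.05, SE 0.34). Within the same width, 20 genes were tested around Dscam1 (1 called higher, 2 lower), 15 around Dscam2 (3 higher, 0 lower) and 12 around Dscam3 (1 higher, 0 lower). Around Dscam1, CG11125, 65.6 kb to the right, rose by 1.07 (SE 0.16, adjusted p = 0.00366, edgeR), and this call held without each single library. Around Dscam2, the calls were those of Acbp6 (1.38, SE 0.37), mei-P22 (1.04, SE 0.25) and RpL18 (0.22, SE 0.04), of which RpL18 alone held without each single library. Acbp6, with 24, 15 and 15 counts in mutant and 9, 7 and 5 in control replicates, passed the filter through the mutant libraries alone. Around Dscam3, the gene with the ID FBgn0010926 rose by 0.21 (SE 0.05), a call that ended without 4 of the single libraries.

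**Figure D4:**
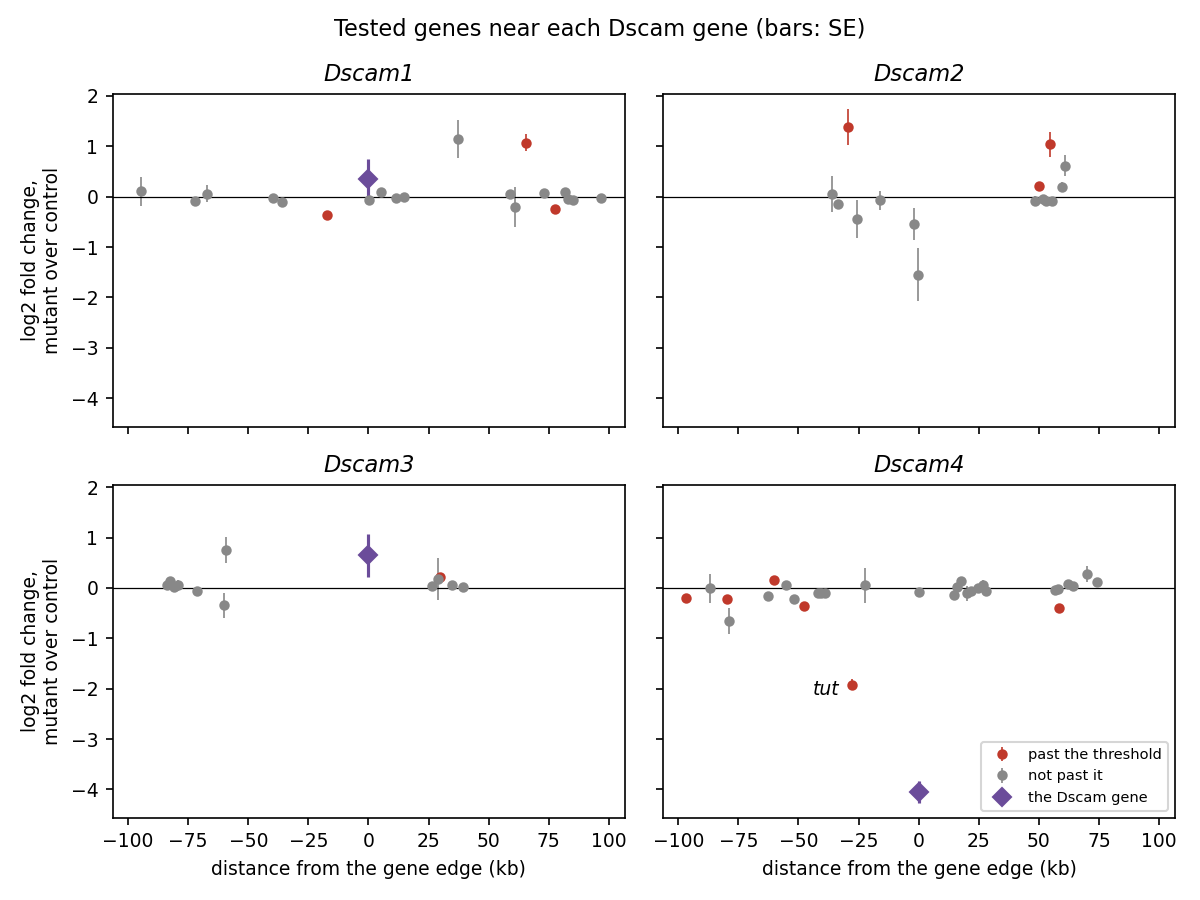
Log2 fold change (mutant over control, bars for the SE) of every tested gene within 100 kb of each Dscam gene against its distance from the gene's nearer edge in kb, with called genes in red, others in grey and the Dscam gene itself as a purple diamond at 0. Around Dscam4, tut is at −1.92 and the other tested neighbours lie between −0.66 and 0.28. Dscam2 had too few counts to be drawn.

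Around Dscam1, 4 of the 6 nearest genes were tested, and CG12164 and Gr43a had at most 6 counts in any library. cos, a kinesin-like gene of Hedgehog signalling that lies 276 bases to the right, had a log2 fold change of −0.07 (SE 0.05), and the helicase gene Dhx15 had 0.09 (SE 0.04), neither past the threshold. pwn, 17.1 kb to the left, fell by 0.35 (SE 0.08, adjusted p = 0.0142, edgeR), and this call ended without control replicate 1, at an adjusted p of 0.0708. Of the 4 tested neighbours it was the only one called. The antisense RNA genes asRNA:CR45129 and asRNA:CR44071, which lie inside Dscam1 on the other strand, had no counts.

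Around Dscam2, 0 of 3 tested neighbours were called in edgeR's test, 1 had an unadjusted p under 0.05 and DESeq2 and limma-voom called 0. CG8620, 324 bases to the left, had 7, 12 and 4 counts in mutant replicates 1, 2 and 3 and 25, 10 and 36 in the control replicates, and its groups overlapped. Its log2 fold change was −1.55 (SE 0.53), short of the threshold at an edgeR adjusted p of 0.0794. Around Dscam3, 3 of the 6 nearest genes had no counts, and of the 2 tested 0 were called, with 0 at an unadjusted p under 0.05 and 0 by DESeq2 or limma-voom. These were CG5823 at 0.03 (SE 0.04) and P5cr-2, a gene of proline synthesis, at 0.18 (SE 0.41).

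Genes whose levels over the 6 libraries ran most like those of a Dscam gene were found by the root mean square distance between log2 CPM profiles, each centred on its own mean. For Dscam4 the nearest were CR41509 (0.296), CG6908 (0.332), CG9458 (0.544) and Tektin-C (0.554). The prior count of 2 in these profiles shrinks the difference between groups for genes of few counts. CR41509 thus stood nearest although its edgeR log2 fold change was −8.17, against −4.05 for Dscam4. CG6908, on 3R, had 39, 26 and 10 counts in mutant replicates 1, 2 and 3 and 309, 252 and 347 in the control replicates. Tektin-C, on 3L, which encodes a filament protein of cilia and flagella, had 1, 3 and 2 counts in the mutant and 53, 33 and 44 in the control replicates. CR41509, a pseudogene placed on chromosome Y, had 0 counts in the mutant libraries and 33, 37 and 38 in the control replicates. It was at least 35.0-fold lower in mutant ovaries, taking 3 counts over the 3 mutant libraries as the floor. Its reads are uncertain, since females as a rule carry no Y chromosome.

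For Dscam1 the nearest profiles were those of CR30409 (0.108), Kal1 (0.141), CG43051 (0.141) and Pkcdelta (0.142), and for Dscam3 those of CG6055 (0.202), CG33143 (0.203), trpl (0.214) and RIC-3 (0.229). Kal1, a gene of an extracellular matrix protein, was at 16.9 ± 4.97 CPM in mutant and 13.3 ± 1.67 CPM in control ovaries (SD, n = 3 each), with mutant replicate 3 lowest as for Dscam1. CR30409 and CG43051 overlap other genes on the same strand and are uncertain. None of these 8 genes was called in edgeR's test. With 6 libraries and few counts, these likenesses are a description of the same libraries.

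Calls among the partners of Dscam in its pathway are given by list, beside 14.5% called among all 8110 genes tested. A partner that was not called is not shown to be equal in both groups. Of 5 tested genes for ligands and coreceptors, 0 rose, 1 fell and 4 were not past the threshold, with a median log2 fold change of 0.03, against −0.00 over all 8110 genes tested. Ptp69D, a receptor tyrosine phosphatase known to act on Dscam1, had 3892, 3265 and 3260 counts in mutant replicates 1, 2 and 3 and 4738, 4266 and 4280 in the control replicates. It fell by 0.31 (SE 0.05, adjusted p = 0.00217, edgeR), to 149 ± 3.44 CPM in mutant ovaries, against 185 ± 9.45 CPM in control ovaries (SD, n = 3 each), and the groups did not overlap. robo1, a receptor of the ligand Slit, had 0.44 (SE 0.31), the Slit gene sli −0.24 (SE 0.18) and the Netrin receptor gene fra 0.11 (SE 0.11), each short of the threshold. sli and fra overlap other genes on the same strand and are uncertain.

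Of the 8 tested genes for partners inside the cell, 0 were called in edgeR's test, 1 (trio) had an unadjusted p under 0.05, and DESeq2 and limma-voom called 0. Their median was 0.00 and their range −0.11 to 0.04. dock, the gene of the adaptor that binds the tail of Dscam1, was at 89.8 ± 3.94 CPM in mutant and 93.5 ± 3.07 CPM in control ovaries, and trio, the gene of a Rac activator, was at 108 ± 6.03 and 117 ± 2.06 CPM in the same order (SD, n = 3 each).

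Of 7 tested genes that act on the splicing or level of Dscam transcripts or protein, 0 rose, 1 fell and 6 were not past the threshold, with a median of 0.07. The kinase gene wnd, known to raise Dscam levels in neurons, fell by 0.35 (SE 0.05, adjusted p = 0.00215, edgeR), with 48.4 ± 1.88 CPM in mutant and 61.7 ± 2.45 CPM in control ovaries (SD, n = 3 each). mbl, whose protein controls the splicing of Dscam2, had 0.24 (SE 0.13) and B52, a splicing factor gene, 0.07 (SE 0.04), both short of the threshold. mbl overlaps other genes on the same strand. The calls of Ptp69D and wnd held without each single library, at adjusted p of up to 0.0102 and 0.0131.

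Among 36 other immunoglobulin adhesion genes, 26 were tested, of which 1 rose, 1 fell and 24 did not pass. Of all genes tested 14.5% were called. In this list 9 genes had an edgeR unadjusted p under 0.05, DESeq2 called 4 and limma-voom called 2. The median log2 fold change of the 26 genes was 0.05 and the range −1.27 to 1.04. The fall was that of Ptp69D. Ptp99A, another receptor tyrosine phosphatase gene, rose by 0.21 (SE 0.04, adjusted p = 0.0113, edgeR), and its call ended without control replicate 1, at an adjusted p of 0.0624. The number called was 4 without mutant replicate 1 or mutant replicate 3, and 1 without control replicate 1. The lowest log2 fold change of the list was that of tutl, the gene of a protein of neurite tiling and branching, with 46, 25 and 10 counts in mutant replicates 1, 2 and 3 and 61, 63 and 73 in the control replicates. Its groups did not overlap, and its value, −1.27 (SE 0.40), missed the threshold at an edgeR adjusted p of 0.0673. The adhesion gene nrm had 0.91 (SE 0.31, adjusted p = 0.0955, edgeR), which also missed it.

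Of the 54 genes of the dpr, DIP, beat and side families, whose surface proteins pair neurons, 14 had no counts and 13 were tested. Of the 13, 2 rose, 0 fell and 11 were not past the threshold, with a median of 0.09, beside 14.5% called of all genes tested. An edgeR unadjusted p under 0.05 was found for 4, DESeq2 called 1 and limma-voom called 2. DIP-lambda had 113, 100 and 108 counts in mutant replicates 1, 2 and 3 and 31, 37 and 32 in the control replicates, and rose by 1.71 (SE 0.22, adjusted p = 9.4e-04, edgeR). DIP-beta, whose value is uncertain because CG10918 overlaps it on the same strand, had 22, 25 and 23 counts in the mutant and 6, 8 and 11 in the control replicates and rose by 1.51 (SE 0.36, adjusted p = 0.0210, edgeR). Its control counts alone would not have passed the filter on low counts, so the filter favoured a rise. Its call ended without mutant replicate 2, control replicate 1 or control replicate 2, at adjusted p of up to 0.0945, and DESeq2 gave 0.0521. The groups did not overlap for either gene.

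**Figure D5:**
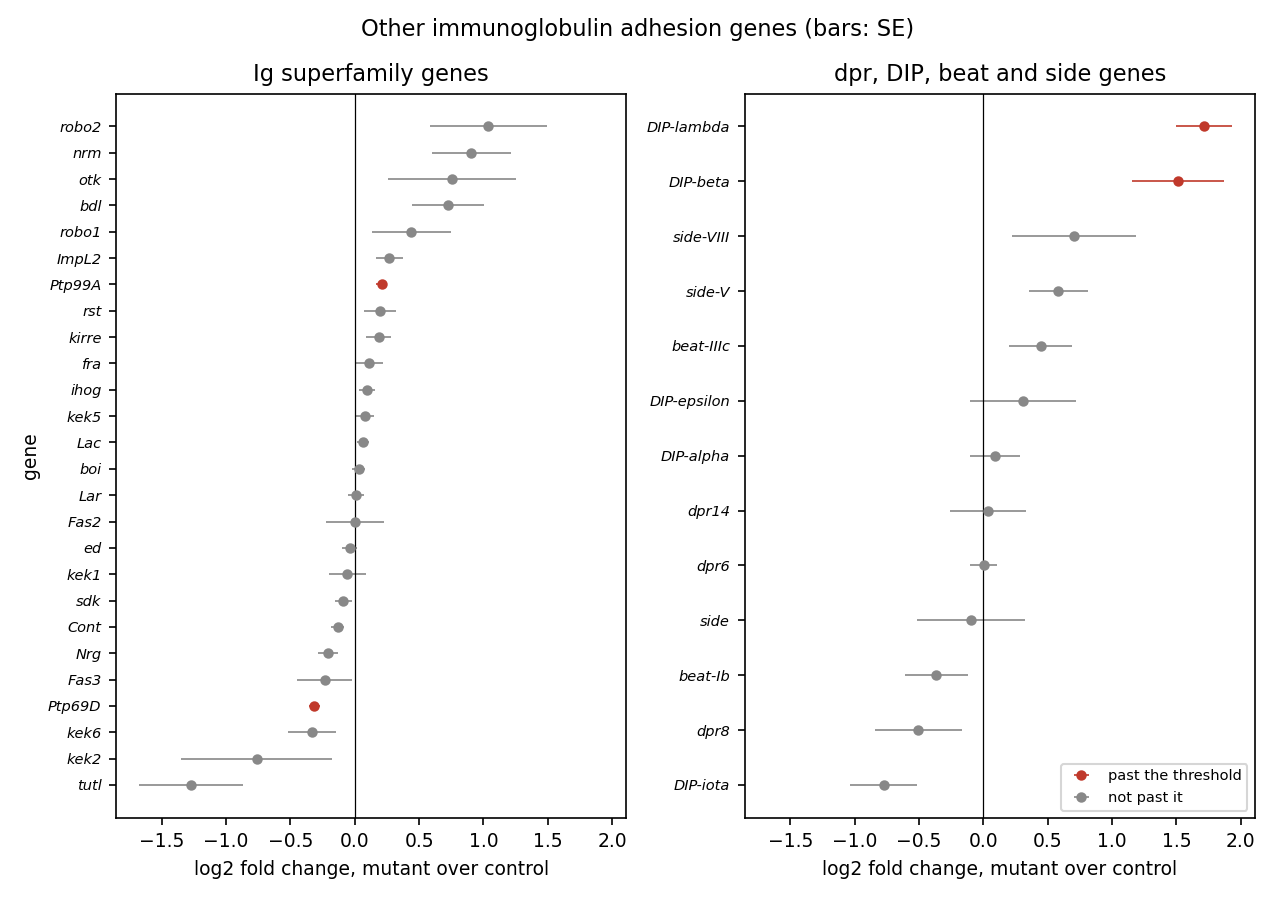
Log2 fold change (mutant over control) with its SE for the 26 tested genes of the immunoglobulin adhesion list on the left and the 13 tested genes of the dpr, DIP, beat and side families on the right, sorted by value, with called genes in red. Every point lies between −1.27 and 1.71, whereas Dscam4 is at −4.05.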

How the data were processed

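For each library the authors deposited whole-number counts of reads for every gene, beside the gene's position. Ovary RNA was TRIzol-extracted and polyA-selected, and the libraries were directional (NEBNext Ultra II), per the labels' protocols. The tools TopHat2, HTSeq and DESeq2 and the names dm6 and BDGP6 come from the submitters' processing notes, which here carry neither versions nor roles. How strand was handled in counting is not given in the sources used here. Symbols came from a gene ID table for 17253 genes and by position (reciprocal overlap of at least 90%) for 214, and lengths from the BDGP6 annotation. Positions are 1-based.

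The filter on low counts (filterByExpr, minimum count 10) passed 8110 of 17559 genes. A gene of few counts could pass it through a single group alone. edgeR 4.0.16 in R 4.3.3 fitted mutant against control without covariates (TMM factors of 0.987 to 1.01, quasi-likelihood test, robust dispersion). The p-values were adjusted by the Benjamini-Hochberg method over all tested genes and called under 0.05. The quoted SE is the absolute log2 fold change over the square root of the F value. Counting intervals are exact (Clopper-Pearson, 95%), and no molecular identifiers are described. Log2 CPM profiles used a prior count of 2. The scripts were tested on simulated counts, in which unchanged genes made up a larger share of edgeR's calls than the nominal 5%, so counts of called genes may hold more false calls than the threshold states.

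The Dscam genes and 15 gene lists (Dscam partners, adhesion genes, cell type markers) were chosen with earlier results of these data known, and 1 of 219 list entries matched no gene (TBCD). Named genes are the Dscam genes, overlapping genes and the 3 nearest on each side, up to 4 tested genes with the smallest p per list, the 4 nearest profiles and Ipo9, and the text gives part of these. Genes of the wider stretches around the Dscam genes, follicle cell genes beyond the first 4 by p, and single markers such as Hml, were named after their values were seen. Alternatives were other scaling factors, DESeq2 1.42.0, limma-voom (limma 3.58.1), other filters, a replicate block and libraries left out. No sequence of these genes is printed, since none was used here.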

Additional observations from a re-analysis of the deposited data

How the results depend on the processing

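Dscam4 kept its direction under all 14 alternative fits, with log2 fold changes of −4.30 to −3.82, as did Dscam1 (0.08 to 0.67) and Dscam3 (0.32 to 0.98) under the 13 that gave a value. Requiring 1 CPM in 3 libraries removed Dscam1 and Dscam3. For Dscam2, with 18 counts in all, the log2 ratio was −0.10 to 1.11 with single libraries left out and −0.20 without both replicates numbered 2. It had no value under DESeq2, limma-voom, the CPM filter or the block. The count of 1177 called genes was 728 with the replicate block, 185 with a fold of at least 2, and 516 without both replicates numbered 2 (243 higher, 273 lower, against 674 and 503). With single libraries left out it was 566 to 1475, and it was more than 1.5 times smaller without control replicate 1 (566), mutant replicate 2 (739), control replicate 3 (775) and mutant replicate 1 (778). The cause was not tested. Same-numbered libraries did not deviate together (r of −0.23, −0.26 and −0.12 over genes for numbers 1, 2 and 3), and no library correlated best with its own number, so the numbers were not used as pairs. What else the libraries share is not given in the labels. Called counts of gene lists and neighbours stayed within 1.5 times of their main count in 180 comparisons and moved further in 44. The 180 include lists that stayed at 0 calls, such as the gut list, with no gene tested in the main fit. They therefore say little of stability. Germline markers, 4 called in the main fit, had 0 to 6 calls with single libraries left out. At 1 to 23 counts per library, differences in Dscam1, Dscam2 and Dscam3 of the size of their intervals could not be seen.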
